A study of Homo sapiens with 9 samples.

Results

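The 10 genes described here are TXNIP, ARRDC3, ARRDC4, TSC22D3, PIK3IP1, CCNG2, FOXO1, FOXO3, KLF2 and BTG1, a set of genes known to restrain growth, nutrient uptake or cell division. They were taken by name from a table of read counts for 17637 genes, and all 10 were among the 15309 genes that passed the filter on low counts and were tested. FOXO1 and FOXO3 are forkhead transcription factors that work in the nucleus when PI3K and AKT signalling is low. When AKT is active it phosphorylates them and they are held in the cytoplasm. In resting lymphocytes the FOXO factors are known to maintain genes of quiescence, such as KLF2, and of signalling restraint, while MYC and PI3K drive the opposite programme. TXNIP, ARRDC3 and ARRDC4 are alpha-arrestins, adaptor proteins for membrane cargo and ubiquitin ligases, and TXNIP and ARRDC4 are known targets of the sugar-sensing factor pair MondoA and MLX, which can share DNA sites with MYC.

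Messenger RNA was measured by poly(A) RNA-seq in KOPTK1, a human cell line established from T-cell acute lymphoblastic leukaemia, in 3 groups of 3 libraries. The group shDHX15+MYC was transduced with lentivirus for a short hairpin RNA against the RNA helicase DHX15 and for the MYC coding region, the group shDHX15 with the hairpin alone, and the group shcControl with a control hairpin that the table names for GFP. The stated question was whether MYC acts downstream of DHX15. The table gives 1 hairpin number for both knockdown groups, so effects of that hairpin other than loss of DHX15 cannot be told apart from it, and the labels state neither a vector without MYC in the shDHX15 group nor separate cultures per replicate. The p-values therefore measure the spread between these libraries only.

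The targeted gene came first as a check of the labels. DHX15 was at 195 ± 2.55 TMM-scaled CPM (counts divided by a scaled library size) in shDHX15+MYC, 167 ± 13.8 CPM in shDHX15 and 280.3 ± 3.43 CPM in shcControl (SD, n = 3), and was lower in every knockdown library than in any shcControl library. It was also 1.17-fold higher in shDHX15+MYC than in shDHX15 (log2 fold change 0.23, edgeR adjusted p = 0.000124). These 2 groups thus differ in DHX15 as well as in MYC, and effects of the 2 cannot be told apart between them. MYC was at 7098 ± 153 CPM in shDHX15+MYC, 86.9 ± 3.78 CPM in shDHX15 and 109 ± 0.603 CPM in shcControl, so the group with added MYC holds far more MYC than the control cells. Library totals ran from 42134302 to 59688062 counts, and the 3 counts that a gene could hide behind a count of 0 were worth 0.0519 to 0.0708 CPM, counting error only. All 15 T cell markers examined were detected, with summed levels of 2872 to 2926 CPM in shDHX15+MYC, 4363 to 4613 CPM in shDHX15 and 5159 to 5242 CPM in shcControl, and TCF7 was the highest of them in each group. Of markers of other cells, the summed level of 14 adherent or packaging cell genes was 65.0 to 66.8 CPM in shDHX15+MYC, 24.8 to 26.4 CPM in shDHX15 and 31.4 to 33.7 CPM in shcControl, with COL1A2 and KRT19 at 0 in all shcControl libraries. Of 8 B cell genes 7 were in the table, at 105 to 109 CPM in shDHX15+MYC, 46.5 to 48.9 CPM in shDHX15 and 51.1 to 53.1 CPM in shcControl. CD79A was the highest of them, with means of 99.8, 37.4 and 40.2 CPM in these groups. CD22 was at 0 in shDHX15 and EBF1 at 0 in shcControl. Of 6 NK cell genes 5 were in the table, at 98.0 to 104 CPM in shDHX15+MYC, 33.9 to 38.0 CPM in shDHX15 and 30.4 to 34.8 CPM in shcControl, nearly all of it NKG7. Of 9 myeloid genes 7 were in the table and summed to 7.33 to 8.93 CPM in shDHX15+MYC, 0.623 to 0.933 CPM in shDHX15, where CSF1R and CD33 were at 0, and 0.810 to 1.31 CPM in shcControl, while 4 of 6 erythroid genes stayed under 1 CPM in sum in every library, with HBB at 0 in shDHX15+MYC. These marker levels moved with the groups compared below, and their part in the results was not tested. The library shDHX15-1 stood apart from the other two of its group: its counts differed from theirs by a chi-square of 17.1 and 16.2 per degree of freedom, against 4.33 between those 2 and 2.71 to 3.21 within the other groups. Where a comparison given below for one of the 10 genes or a related gene changed its call without shDHX15-1, both values are given. Calls of related genes in comparisons that are not given can also change. In shDHX15 over shcControl the edgeR adjusted p of AKT1 went from 0.232 to 0.00333 without shDHX15-1, and that of CDKN1A from 0.376 to 4.76e-05.

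The promoter sequences of the alpha-arrestins are shown because TXNIP and ARRDC4 responded unlike each other to added MYC although both are known MondoA targets. RefSeq windows of 300 bases, 250 before a start and 50 after it, were found for all 10 genes, 19 windows in all, and for 12935 genes of the table, 18667 windows (GRCh38.p14). The 250 bases before the first TXNIP start lie at chr1:145996580-145996829 on the minus strand, and those before the ARRDC4 start at chr15:97960453-97960702 on the plus strand. Capitals mark letters that were searched for: in TXNIP the FOXO core TGTTTAC, read here on the opposite strand as GTAAACA, and a pair of CACGAG hexamers 5 bases apart, and in ARRDC4 the E-box CACGTG, the site type read by MYC with MAX and by MondoA with MLX.
TXNIP: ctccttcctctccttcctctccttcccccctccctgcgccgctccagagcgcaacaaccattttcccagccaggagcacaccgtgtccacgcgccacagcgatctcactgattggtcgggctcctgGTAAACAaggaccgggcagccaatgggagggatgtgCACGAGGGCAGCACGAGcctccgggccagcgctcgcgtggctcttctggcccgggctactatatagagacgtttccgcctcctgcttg
ARRDC4: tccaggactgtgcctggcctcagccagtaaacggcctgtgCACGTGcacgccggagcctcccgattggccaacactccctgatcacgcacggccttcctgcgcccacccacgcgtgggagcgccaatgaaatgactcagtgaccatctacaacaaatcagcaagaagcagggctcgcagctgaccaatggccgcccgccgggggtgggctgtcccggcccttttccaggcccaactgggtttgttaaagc
The FOXO core in TXNIP began 124 bases before the start (position -124) and the hexamer pair at -88, while the E-box in ARRDC4 began at -210.

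The letters of the FOXO core, on either strand, were in windows of 5 of the 10 genes (5 of 19 windows, 26.3%), against 2.74% of all windows and 3.71% of all genes with a window. The numbers of windows per gene differ, from 1 for ARRDC4, CCNG2, FOXO1, KLF2 and BTG1 to 4 for TSC22D3 and FOXO3, and a gene with more windows has more chances of a match. The E-box was in 2 of the 10 genes, ARRDC4 and CCNG2 (10.5% of windows), against 8.65% of all windows and 11.6% of genes. ARRDC3, TSC22D3 and PIK3IP1 hold the FOXO core letters and were lower with added MYC than in shDHX15. TXNIP and BTG1 hold them and were not called there. CCNG2, which fell the most of the 10 genes, and KLF2, which also fell, have no such letters in their windows. A relation of these letters to direction was not tested. The remaining matches are shown with 10 bases on each side and the match in capitals.
ARRDC3: gcccggcactTGTTTACcacggcgcgg
TSC22D3: agtgctgaacTGTTTACagtcccagcc
PIK3IP1: aaagagaggcTGTTTACcagaacagca
BTG1: cgggtttattTGTTTACaagcggatta
CCNG2: cgcggggagtCACGTGccccgccccc
These stretches lie at chr5:91380110-91380136 (ARRDC3, start 2, match at -29), chrX:107717193-107717219 (TSC22D3, start 3, match at -147), chr22:31292456-31292482 (PIK3IP1, start 2, match at 17 after the start), chr12:92146039-92146065 (BTG1, match at -209), all on the minus strand, and chr4:77157167-77157192 (CCNG2, plus strand, match at -30). The fixed pattern CACNNG, 5 bases and CNNGTG, written for a carbohydrate response element, was in none of the 19 windows. It was in 0.509% of all windows. The pair of CACGAG hexamers in TXNIP, also 5 bases apart, cannot match this pattern because its last hexamer is not of the form CNNGTG. The absence of the pattern therefore does not show that TXNIP lacks a carbohydrate response element, which was not tested. The glucocorticoid receptor site written as AGAACA, 3 bases and TGTTCT was in 0 of 18667 windows. This pattern allows no other letter in either hexamer, so few matches could arise. Its absence does not show that TSC22D3 lacks a receptor site, which was not tested. The pair of CACGAG hexamers was chosen after the TXNIP sequence had been read, and 2 of 18667 windows held it. A match is a string of letters in these windows and says nothing on binding.

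**Figure D1:**
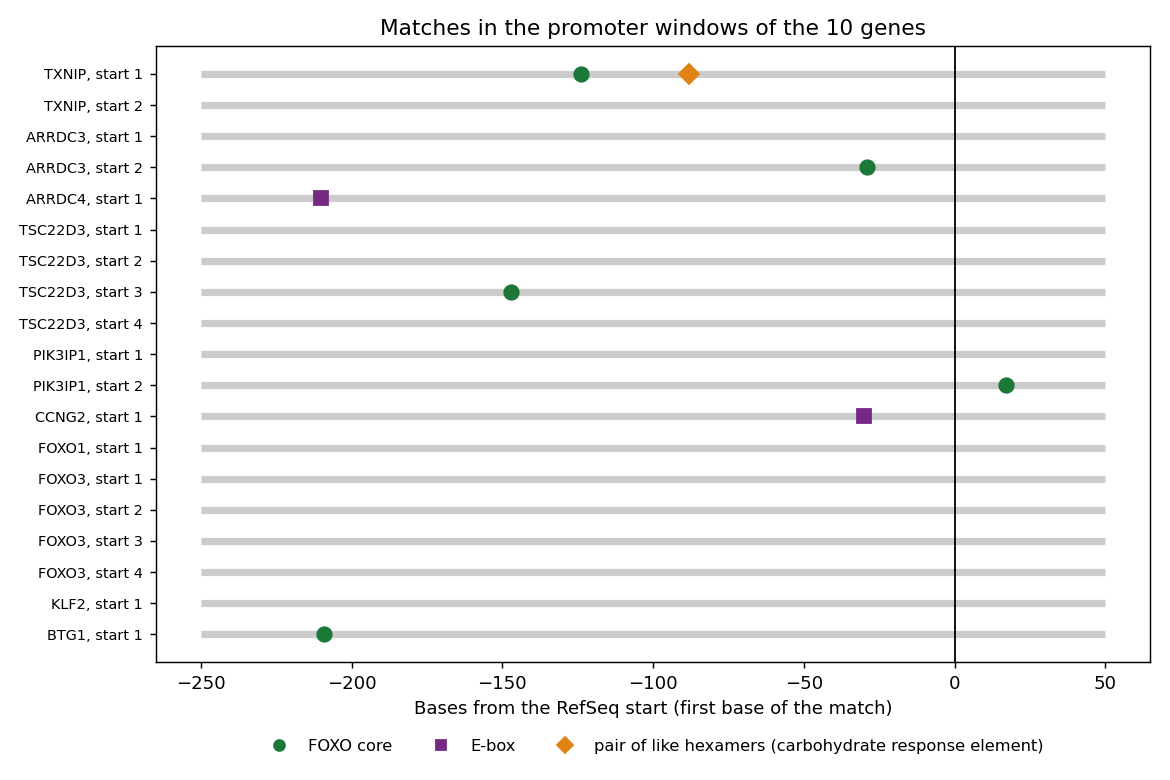
Map of the 19 promoter windows of the 10 genes, with the RefSeq start at 0 on the axis of bases and a marker at the first base of each match on either strand. FOXO core matches lie between -209 and 17, the E-boxes of ARRDC4 and CCNG2 at -210 and -30, and FOXO1, FOXO3 and KLF2 have no marker.

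The knockdown alone moved few of these genes far. In shDHX15 against shcControl, ARRDC3, TSC22D3, CCNG2 and FOXO3 rose and ARRDC4 fell, and TSC22D3 was the only member to reach a 2-fold change. Calls are at an adjusted p under 0.05 in edgeR's quasi-likelihood test over all 15309 genes. Of the 10 genes 4 were called higher, where the share of all genes tested was 22.0%, and 1 lower, where that share was 23.0%. The ranges of the groups did not overlap for 5 of the 10, where the share of all genes was 51.1%, so the set as a whole lay near the background. The median log2 fold change of the 10 was 0.14, against -0.0047 for all genes, and the median size regardless of sign was 0.26 against 0.20.

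Added MYC divided the set. In shDHX15+MYC against shDHX15, CCNG2, TSC22D3, PIK3IP1, ARRDC3 and KLF2 fell, ARRDC4 and FOXO1 rose, while TXNIP, FOXO3 and BTG1 were not called. All 7 of these changes reached 2-fold with TMM scaling and all libraries. The 2-fold size was not kept by KLF2 on total counts alone (-0.91 on the log2 scale) or without shDHX15-3 (-0.76), nor by FOXO1 with some single libraries left out (0.89 at the lowest). That is 2 of 10 called higher (42.1% of all genes) and 5 of 10 lower (42.6%), with ranges that did not overlap for 6 of 10 (85.0%). The median size of change regardless of sign was 1.49 on the log2 scale for the 10 genes and 0.71 for all genes. Against shcControl, the shDHX15+MYC libraries had 3 of the 10 called higher (42.0% of all genes), ARRDC4, FOXO1 and FOXO3, and 6 lower (42.5%), TXNIP, ARRDC3, TSC22D3, PIK3IP1, CCNG2 and KLF2, with 10 of 10 ranges apart (87.2%). The 6 called lower were 4 with RLE factors (another scaling), 4 on total counts and 5 in DESeq2, and the 3 called higher were 5 on total counts. The counts with added MYC thus lay near the share of all genes or moved with the scaling, so they say little about the set and the sizes carry the description. These comparisons share the shDHX15 or the shcControl libraries, and fold changes from them are given side by side without a test of their relation. In bulk RNA a change can come from fewer cells that hold a message or from less message in each cell, which cannot be told apart here.

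**Figure D2:**
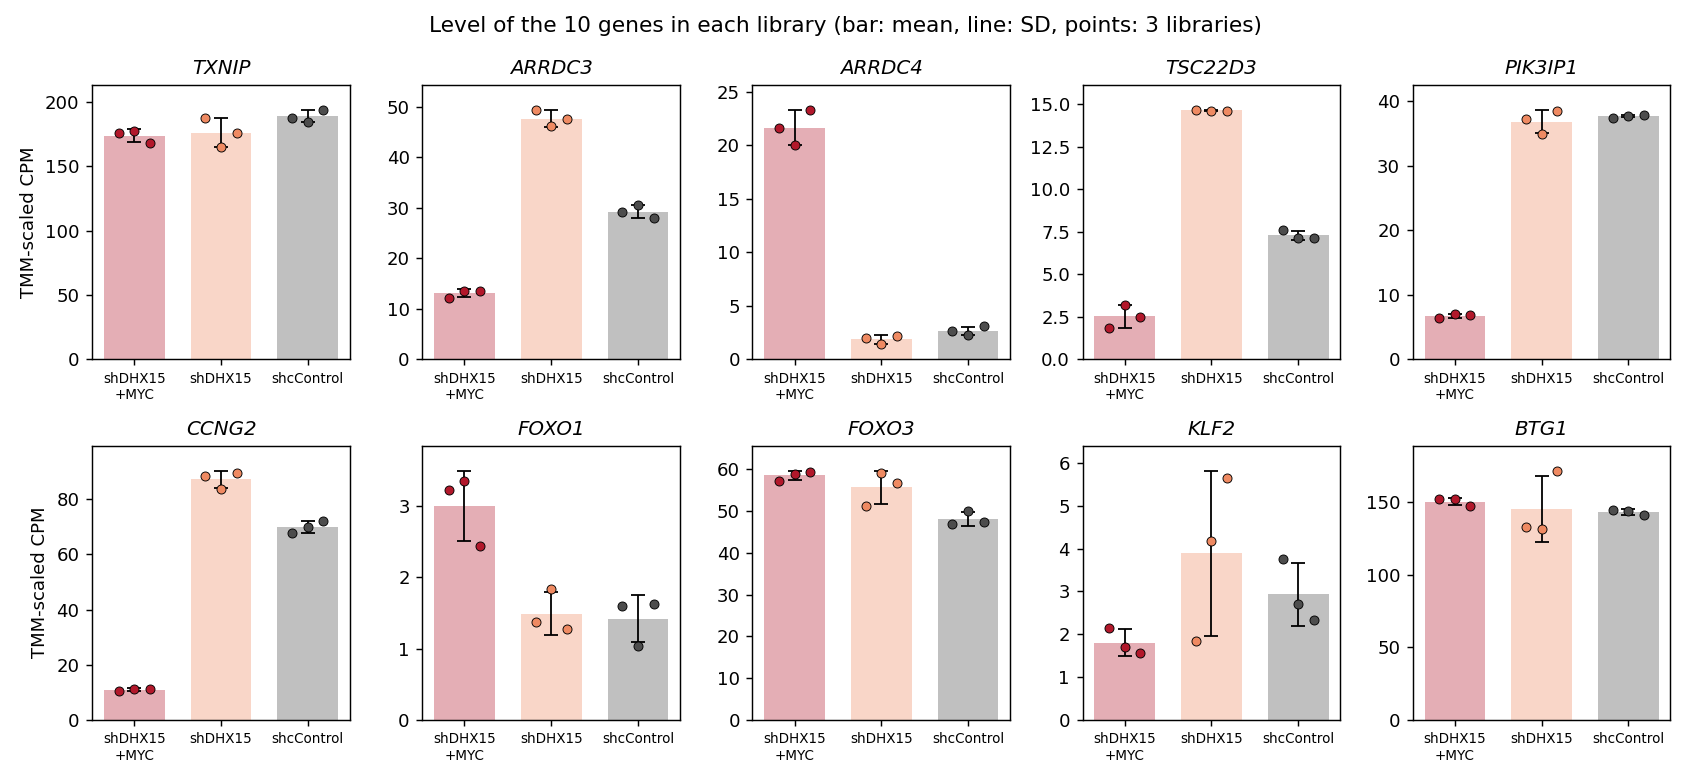
Level of each of the 10 genes in TMM-scaled CPM (vertical axis, from 0) in the shDHX15+MYC, shDHX15 and shcControl groups; bars are means, lines the SD and points the 3 libraries. CCNG2 and PIK3IP1 libraries with added MYC sit at 6.39 to 11.2 CPM, far under the other 2 groups, ARRDC4 stands at 20.0 to 23.3 CPM in shDHX15+MYC alone, and TXNIP and BTG1 bars are nearly level.

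Scaling matters for the genes that moved least. Without TMM factors, on total counts alone, the median of all genes shifted to 0.20 in shDHX15+MYC against shDHX15 and to 0.28 in shDHX15+MYC against shcControl, from near 0, and to 0.06 in shDHX15 against shcControl. TXNIP, FOXO3 and BTG1 change their call or direction with that choice, which is stated with each, while ARRDC3, ARRDC4, TSC22D3, PIK3IP1 and CCNG2 kept their direction and call with added MYC under both scalings.

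TXNIP, the thioredoxin-interacting protein that lowers glucose uptake and binds thioredoxin, lies on chromosome 1 at 145992435 to 145996600 on the minus strand (GENCODE v29, GRCh38, here and below). It was at 176, 177 and 169 CPM in the 3 shDHX15+MYC libraries, 188, 165 and 176 CPM in the shDHX15 libraries and 188, 185 and 194 CPM in the shcControl libraries. The 3 groups lay close together, and the shDHX15 libraries spanned the levels of the shDHX15+MYC group. The log2 fold change was -0.10 in shDHX15 over shcControl (SE 0.0413, edgeR adjusted p = 0.0557), just short of the call, and -0.15 without the library shDHX15-1 (adjusted p = 7.18e-05). It also passed the threshold among single-locus genes alone (adjusted p = 0.0489) and with libraries thinned to equal totals (0.0424). With added MYC it was -0.02 over shDHX15 (SE 0.0414, edgeR adjusted p = 0.706), and 98.6% of all genes tested changed at least as much. Over shcControl it was -0.12 in shDHX15+MYC (adjusted p = 0.0139), 1.09-fold lower, a call that was lost without shcControl-3 (adjusted p = 0.0525), without shDHX15+MYC-3 (0.0665), with RLE factors (0.0833) and in DESeq2 (0.0967). On total counts alone TXNIP was 0.18 higher with added MYC than in shDHX15 and 0.15 higher than in shcControl on the log2 scale, so its direction rests on the scaling, and in each case the change was under the shift of the median gene.

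ARRDC4, an alpha-arrestin that also limits glucose uptake, moved the most of the 10 (chromosome 15, 97960698 to 97973838, plus strand). The 3 shDHX15+MYC libraries held 21.6, 20.0 and 23.3 CPM, from 967 to 1089 counts. The shDHX15 libraries held 2.00, 1.40 and 2.16 CPM and the shcControl libraries 2.58, 2.27 and 3.07 CPM, from 81 to 144 counts. All libraries with added MYC were thus far above the other 6, and the shDHX15 libraries were all below the shcControl libraries. ARRDC4 rose 11.8-fold with added MYC over shDHX15 (a log2 fold change of 3.56, SE 0.136, with an edgeR adjusted p = 7.02e-14) and 8.17-fold over shcControl (3.03, SE 0.131, adjusted p = 4.09e-13), and 3.92% of all genes changed at least as much in the first of these. In the knockdown it fell by 0.53 on the log2 scale against shcControl (SE 0.163, edgeR adjusted p = 0.0138). That smaller call was lost without shDHX15-2 (-0.35, adjusted p = 0.0841), without shcControl-3 (-0.40, adjusted p = 0.0864) and in a fit of the 2 groups alone (adjusted p = 0.0647).

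ARRDC3, an alpha-arrestin that recruits NEDD4-type ubiquitin ligases to membrane receptors, went the other way (chromosome 5, 91368724 to 91383359, minus strand). It was at 12.2, 13.5 and 13.6 CPM in shDHX15+MYC, 49.4, 46.1 and 47.5 CPM in shDHX15 and 29.1, 30.6 and 27.9 CPM in shcControl. The 3 groups were fully apart, with the knockdown highest and the knockdown with MYC lowest. In shDHX15 it rose 1.63-fold over shcControl (log2 fold change 0.71, SE 0.0565, edgeR adjusted p = 3.94e-08). With added MYC it fell by 1.87 on the log2 scale against shDHX15 (SE 0.0604, edgeR adjusted p = 7.76e-15) and by 1.16 against shcControl (SE 0.0616, adjusted p = 7.51e-12). An antisense gene, ARRDC3-AS1, shares 145 exonic bases with ARRDC3 on the opposite strand, and since the sources used here do not say whether strand was used in counting, its reads cannot be told apart there.

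Levels of different genes were compared per kilobase of exon, as TMM-scaled CPM per kilobase. Of the 5 alpha-arrestins tested here, TXNIP held 62.4 to 65.0% of the summed level in shDHX15+MYC, 63.5 to 66.2% in shDHX15 and 69.7 to 70.7% in shcControl. The share of ARRDC3 was 3.23 to 3.69% in shDHX15+MYC, 12.7 to 13.0% in shDHX15 and 7.48 to 8.48% in shcControl. That of ARRDC4 was 6.53 to 7.69% in shDHX15+MYC, 0.479 to 0.702% in shDHX15 and 0.760 to 0.996% in shcControl. ARRDC3 and ARRDC4 thus changed places: per kilobase ARRDC4 averaged 5.32 against 2.65 for ARRDC3 in shDHX15+MYC, 0.455 against 9.66 in shDHX15 and 0.648 against 5.92 in shcControl. ARRDC1, which is known for its part in vesicle release at the plasma membrane, averaged 13.6 CPM per kilobase in shDHX15+MYC, 10.1 in shDHX15 and 9.31 in shcControl, and rose with added MYC over shDHX15 (log2 fold change 0.43, edgeR adjusted p = 8.53e-08). ARRDC2, named to complete the family after its values were seen, had a log2 fold change of -0.11 there (edgeR adjusted p = 0.109), and -0.17 without shDHX15-1 (adjusted p = 0.0113), past the threshold. ARRDC5 did not pass the filter on low counts.

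**Figure D3:**
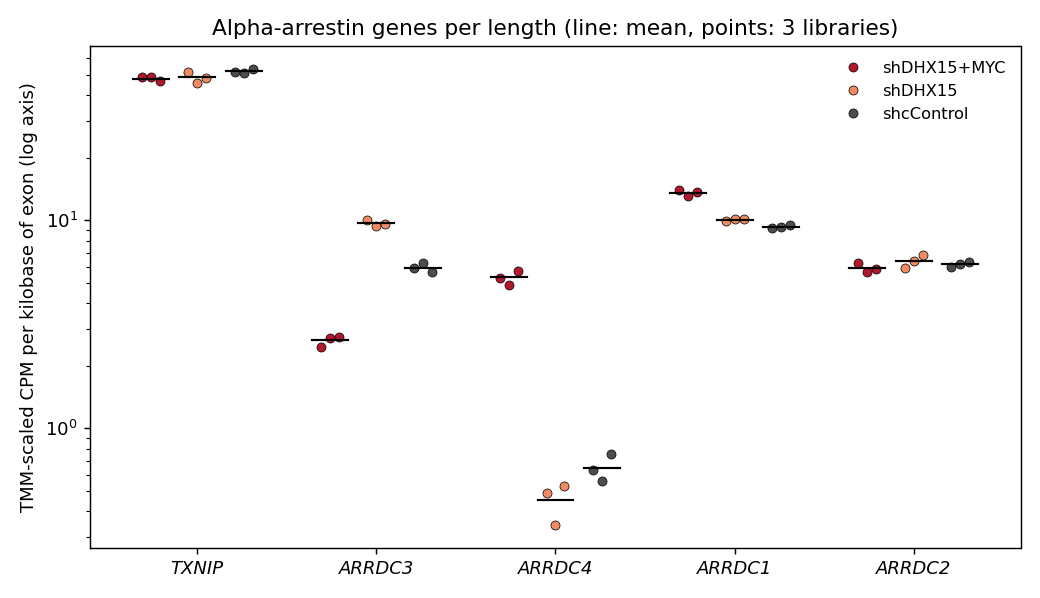
Levels of the 5 tested alpha-arrestin genes in TMM-scaled CPM per kilobase of exon (log axis), for shDHX15+MYC, shDHX15 and shcControl from left to right within each gene; points are libraries and lines means. TXNIP stays near 50 in all groups, while ARRDC3 has its lowest and ARRDC4 its highest points in shDHX15+MYC.

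Of the 2 FOXO factors, FOXO1 rose with added MYC and FOXO3 rose by a small margin over shcControl in both knockdown groups. FOXO1 (chromosome 13, 40469953 to 40666597, minus strand) was near the bottom of the set, with 44 to 162 counts per library. It was at 3.23, 3.35 and 2.44 CPM in shDHX15+MYC, 1.37, 1.83 and 1.27 CPM in shDHX15 and 1.60, 1.04 and 1.62 CPM in shcControl. The libraries with added MYC were above all others, and those of shDHX15 and shcControl overlapped. FOXO1 rose 2.00-fold with added MYC over shDHX15 (a log2 fold change of 1.00, SE 0.214, with an edgeR adjusted p = 0.000342) and 2.11-fold over shcControl (1.08, SE 0.219, adjusted p = 0.000212). In shDHX15 over shcControl the difference was 0.08 (SE 0.231, edgeR adjusted p = 0.818), and it took the opposite sign without shcControl-2 (-0.10) or shDHX15-2 (-0.11). The lincRNA gene LINC00598 shares 269 exonic bases with FOXO1 on the same strand.

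FOXO3, on chromosome 6 at 108559835 to 108684774 (plus strand), was the more abundant factor. It was at 57.2, 58.9 and 59.4 CPM in shDHX15+MYC, 51.3, 59.1 and 56.7 CPM in shDHX15 and 46.9, 50.1 and 47.5 CPM in shcControl. All shDHX15 libraries were above the shcControl libraries by a small margin and overlapped those with added MYC. FOXO3 rose 1.16-fold in shDHX15 over shcControl (a log2 fold change of 0.21, SE 0.0513, with an edgeR adjusted p = 0.00297) and 1.22-fold in shDHX15+MYC over shcControl (0.28, adjusted p = 7.22e-05). Between shDHX15+MYC and shDHX15 the log2 fold change was 0.07 (SE 0.0507, edgeR adjusted p = 0.198). It became 0.13 without shDHX15-2 (adjusted p = 0.0353) and 0.27 on total counts alone (adjusted p = 8.98e-05), both past the threshold. FOXO3 values are less certain than the rest, because a share of 0.2 of its transcript sequence, in windows of 100 bases, also occurs at FOXO3B and AC026271.3 on chromosome 17, where 47 and 21 of its 340 windows matched. No other member shared a window with another locus. Per kilobase, FOXO3 averaged 7.58 in shDHX15+MYC, 7.21 in shDHX15 and 6.24 in shcControl, against 0.483, 0.240 and 0.228 for FOXO1.

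PIK3IP1, a membrane protein that inhibits the catalytic subunit of PI3K (chromosome 22, 31281593 to 31292534, minus strand), was at 6.39, 7.02 and 6.77 CPM in shDHX15+MYC, 37.2, 34.8 and 38.4 CPM in shDHX15 and 37.4, 37.7 and 37.8 CPM in shcControl. The knockdown libraries lay around the control libraries, and those with added MYC were far below both. The log2 fold change in shDHX15 over shcControl was -0.03 (SE 0.0542, edgeR adjusted p = 0.661), with a sign that turns on total counts alone (0.03). With added MYC it fell by 2.45 on the log2 scale against shDHX15, 5.47-fold (SE 0.0633, edgeR adjusted p = 3.96e-16), and 5.59-fold against shcControl (adjusted p = 3.49e-16). The antisense gene PIK3IP1-AS1 shares 36 exonic bases with it.

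TSC22D3, also called GILZ, is a leucine zipper protein induced by glucocorticoids and by FOXO3 (chromosome X, 107713221 to 107777342, minus strand). Its level was 1.86, 3.19 and 2.48 CPM in shDHX15+MYC, 14.7, 14.6 and 14.6 CPM in shDHX15 and 7.60, 7.13 and 7.12 CPM in shcControl. The 3 groups were apart, and the knockdown libraries were almost equal to each other. The gene rose 2.01-fold in shDHX15 over shcControl (log2 fold change 1.01, SE 0.115, edgeR adjusted p = 2.21e-06), while 5.23% of all genes changed at least as much. With added MYC it fell by 2.54 on the log2 scale against shDHX15 (SE 0.13, edgeR adjusted p = 4.21e-12), 5.83-fold, and by 1.54 against shcControl (SE 0.136, adjusted p = 1e-08). The libraries with added MYC held 88 to 154 counts of TSC22D3, and the spread among them was 26.5% of the mean, against 0.212% in shDHX15 and 3.80% in shcControl. The shDHX15 libraries held 690 to 846 counts, for which counting error alone exceeds 0.212%. Their near equality therefore does not show that TSC22D3 varied less in that group. NCBP2L shares 71 exonic bases with the gene on the opposite strand.

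**Figure D4:**
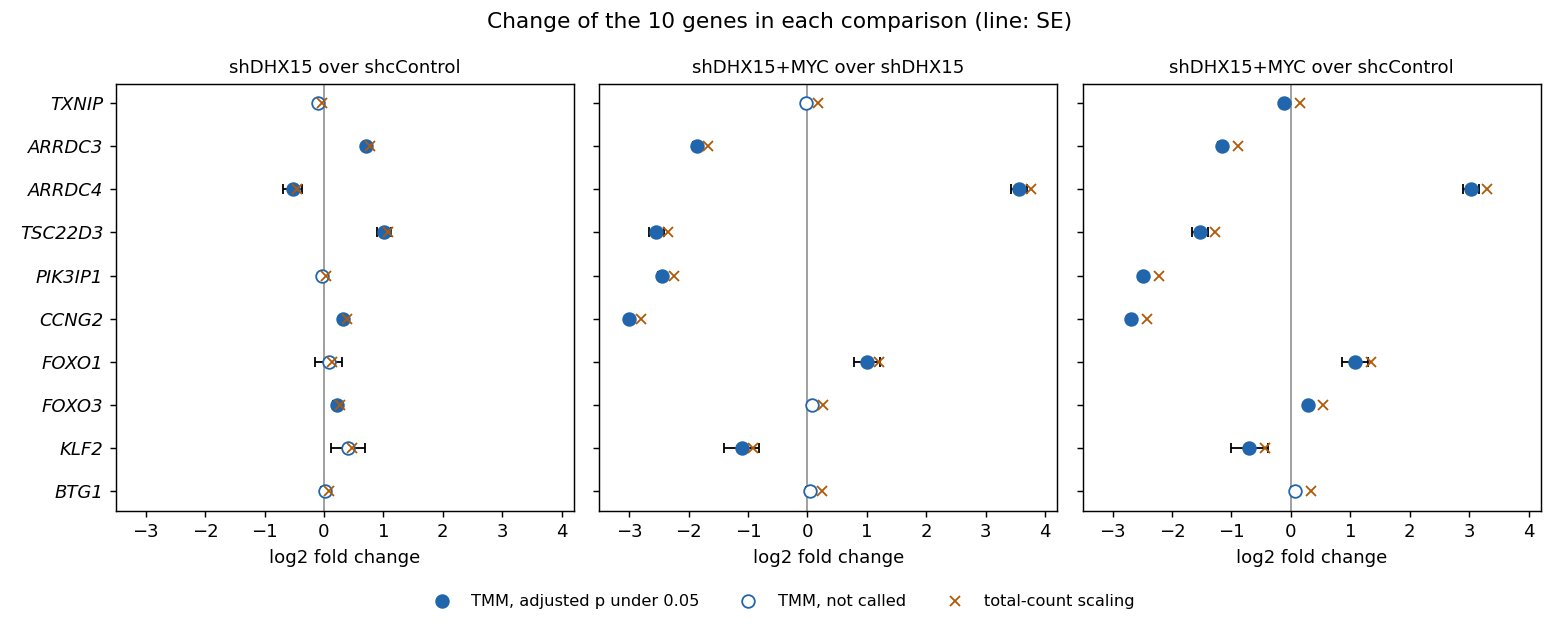
Log2 fold change of the 10 genes (horizontal axis) in the 3 comparisons, with TMM scaling as circles (filled at an adjusted p under 0.05, lines for the SE) and total-count scaling as crosses. Crosses lie to the right of circles in both comparisons with added MYC, which moves TXNIP across 0, while ARRDC4 on the right and CCNG2 on the left lie farthest from it in shDHX15+MYC over shDHX15.

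CCNG2, cyclin G2, is an unconventional cyclin that is raised in arrested cells and known as a FOXO target (chromosome 4, 77157151 to 77433388, plus strand). It was at 10.3, 11.1 and 11.2 CPM in shDHX15+MYC, 88.6, 83.7 and 89.6 CPM in shDHX15 and 67.7, 70.1 and 72.1 CPM in shcControl. The groups did not overlap, and the libraries with added MYC were the lowest by far. CCNG2 fell by 3.00 on the log2 scale with added MYC against shDHX15, 8.01-fold (SE 0.0519, edgeR adjusted p = 2.56e-18), and 6.42-fold against shcControl (adjusted p = 1.09e-17). At least as large a change was seen in 6.54% and 7.35% of all genes. In shDHX15 it rose 1.25-fold over shcControl (log2 fold change 0.32, SE 0.044, edgeR adjusted p = 1.67e-05).

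KLF2, a zinc finger factor that keeps T cells quiescent and is known to depend on FOXO1 in mouse T cells, had few counts, 73 to 267 per library (chromosome 19, 16324817 to 16327874, plus strand). It was at 2.15, 1.70 and 1.56 CPM in shDHX15+MYC, 1.83, 4.19 and 5.66 CPM in shDHX15 and 3.76, 2.71 and 2.32 CPM in shcControl. The library shDHX15-1 was within the range of the group with added MYC, while the other two of its group were above all other libraries, so the spread in shDHX15 was 49.6% of its mean. KLF2 fell by 1.11 on the log2 scale with added MYC against shDHX15 (SE 0.3, edgeR adjusted p = 0.00247), by 1.45 without shDHX15-1 (adjusted p = 1.02e-08), by 0.76 without shDHX15-3 (adjusted p = 0.0173) and by 0.91 on total counts alone (adjusted p = 0.0098). The log2 fold change in shDHX15 over shcControl was 0.41 (SE 0.286, edgeR adjusted p = 0.264), and without shDHX15-1 it was 0.74 (SE 0.185, adjusted p = 0.00091), past the threshold. In shDHX15+MYC against shcControl KLF2 was called by a small margin (-0.70, SE 0.31, adjusted p = 0.0451). That call was lost without shcControl-1 (-0.49, adjusted p = 0.205), shcControl-2 (adjusted p = 0.0603), shDHX15-2 (0.0537), shDHX15+MYC-2 (0.11) or shDHX15+MYC-3 (0.132), as well as with the replicate number as a block (adjusted p = 0.0582), RLE factors (0.0555) and total counts (0.2).

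BTG1, an antiproliferative protein that recruits the CCR4-NOT deadenylase to messenger RNA (chromosome 12, 92140278 to 92145897, minus strand), was at 152, 152 and 147 CPM in shDHX15+MYC, 133, 132 and 172 CPM in shDHX15 and 144, 144 and 141 CPM in shcControl. The library shDHX15-3 was the highest of all and the other two of its group the lowest, so that the spread in shDHX15, 15.6% of the mean, set the result. The log2 fold change was 0.02 in shDHX15 over shcControl (SE 0.0696, edgeR adjusted p = 0.826) and 0.05 in shDHX15+MYC over shDHX15 (SE 0.0694, adjusted p = 0.514). Without shDHX15-3 these became -0.11 (adjusted p = 0.0182) and 0.18 (adjusted p = 0.000188), both past the threshold. In shDHX15+MYC over shcControl it was 0.07 (SE 0.0697, edgeR adjusted p = 0.347), although the ranges did not overlap, and a fit of these 2 groups alone called it (adjusted p = 0.00376). On total counts alone BTG1 was called higher with added MYC, by 0.25 over shDHX15 and 0.34 over shcControl. The genes LINC01619 and AC025164.1 share 503 and 325 exonic bases with BTG1, on the same and the opposite strand.

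Ordered by level per kilobase, TXNIP and BTG1 led in every group, with means of 48.0 and 31.0 CPM per kilobase in shDHX15+MYC, 48.6 and 29.9 in shDHX15 and 52.1 and 29.5 in shcControl. CCNG2 was the next in shDHX15 at 11.7 CPM per kilobase and PIK3IP1 in shcControl at 9.89, while both were among the low genes in shDHX15+MYC, at 1.46 and 1.77. There FOXO3 and ARRDC4 took their places, at 7.58 and 5.32 CPM per kilobase. FOXO1 was the lowest of the 10 in each group, though in shDHX15+MYC its range overlapped that of TSC22D3, at 0.483 and 0.527. Neighbours with overlapping ranges were also PIK3IP1 and ARRDC3 in shDHX15, and FOXO3 and ARRDC3 as well as TSC22D3 and KLF2 in shcControl.

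The genes most like the 3 members with the largest change with added MYC were found by the root mean square difference of centred log2 CPM over the 9 libraries, among 9567 genes averaging 3 or more in log2 CPM. OGDHL and HILPDA were at 0.083 and 0.0926 from CCNG2, and FAM72A at 0.0602, although 0.693 of the sequence windows of FAM72A occur at other loci. TRIM44, TJP1 and MX1 were at 0.226, 0.25 and 0.272 from ARRDC4. TPM2, PCBP3 and FAM214B were at 0.232, 0.261 and 0.261 from TSC22D3. With 9 libraries in 3 groups, likeness here is mostly likeness of group means.

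Genes of the pathways around the 10 members were described from lists by count, with the median log2 fold change of the list and no test of the list. Over all genes tested, 22.0% were called higher and 23.0% lower in shDHX15 over shcControl, 42.1% higher and 42.6% lower in shDHX15+MYC over shDHX15, and every count below is to be read against these shares. Of 12 genes that modify or partner FOXO factors, 2 were higher and 6 lower in shDHX15 over shcControl, and 5 were higher and 6 lower in shDHX15+MYC over shDHX15, close to the share of all genes. Without shcControl-1 the 6 lower in the knockdown were 3. SGK1, a kinase that phosphorylates FOXO3 as AKT does, rose 5.94-fold with added MYC, to 29.1 ± 0.992 CPM in shDHX15+MYC against 4.90 ± 0.481 CPM in shDHX15 (edgeR adjusted p = 9.86e-14). SIRT1, a deacetylase of FOXO proteins, rose 1.79-fold there (adjusted p = 5.14e-09). USP7 and STK4 fell 1.43-fold and 1.46-fold there (adjusted p = 8.18e-11 and 2.3e-10). The median log2 fold change of the 12 genes was -0.09 in shDHX15+MYC over shDHX15, and 0.11 on total counts alone. The other FOXO factors, FOXO4 and FOXO6, were named after their values were seen. FOXO6 averaged 23.3 ± 1.29 CPM in shDHX15+MYC, 13.0 ± 4.69 CPM in shDHX15 and 8.49 ± 0.657 CPM in shcControl, and rose with added MYC over shDHX15, as did FOXO1 (log2 fold change 0.84, edgeR adjusted p = 0.000136). The shDHX15 libraries were at 8.24, 13.2 and 17.6 CPM, and without shDHX15-1, the lowest of them, the log2 fold change was 0.60 (adjusted p = 1.05e-07). FOXO4 averaged 21.6 CPM in shDHX15+MYC against 25.2 CPM in shDHX15 (log2 fold change -0.22, edgeR adjusted p = 0.00247), a difference that shrinks to -0.02 on total counts alone.

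Of 26 FOXO target genes outside the set, 10 were higher and 5 lower in the knockdown (median log2 fold change 0.07), and 7 were higher and 16 lower with added MYC over shDHX15 (median -0.44, or -0.25 on total counts alone). DDIT4, an inhibitor of mTORC1, was at 126.5 ± 5.23 CPM in shDHX15+MYC, 449 ± 1.23 CPM in shDHX15 and 304 ± 2.99 CPM in shcControl, and was thus highest in the knockdown and lowest with MYC, as were ARRDC3, TSC22D3 and CCNG2. RBL2, a pocket protein of resting cells, fell 4.83-fold with added MYC against shDHX15 (edgeR adjusted p = 4.47e-18). GADD45A, a stress gene, rose 6.52-fold, to 125 ± 5.14 CPM in shDHX15+MYC against 19.1 ± 1.93 CPM in shDHX15 (adjusted p = 5.47e-17). As with the members, known FOXO targets moved both ways.

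In the PI3K, AKT and mTORC1 pathway, 6 of 26 genes were higher and 5 lower in shDHX15 over shcControl, and 6 were higher and 19 lower in shDHX15+MYC over shDHX15, where 42.1% of all genes were higher and 42.6% lower. Without shDHX15-1 the 6 higher in the knockdown were 10. RICTOR, a subunit of mTORC2, fell 2.63-fold with added MYC against shDHX15 (edgeR adjusted p = 3.78e-15). AKT1 and AKT2 were 1.65-fold and 1.86-fold lower in shDHX15+MYC than in shcControl (edgeR adjusted p = 1.52e-12 and 8.01e-13). The lowered genes thus included kinases and a complex subunit that carry the pathway's signal.

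Around TXNIP and ARRDC4, the MondoA and MLX network had 2 of 9 genes higher and 6 lower with added MYC over shDHX15. MLXIP, which encodes MondoA, fell 1.63-fold, to 162 ± 4.45 CPM in shDHX15+MYC against 264 ± 13.7 CPM in shDHX15 (edgeR adjusted p = 5.49e-12). MLX fell 1.47-fold (adjusted p = 3.01e-10), MXD3 1.67-fold (2.69e-13) and MXD4 2.5-fold (1.46e-12). The 2 higher genes, named after their values were seen, were MGA and MLXIPL. MGA rose 1.26-fold (adjusted p = 2.25e-07). MLXIPL rose 2.41-fold (0.000184) from a low level, to 1.90 CPM in shDHX15+MYC against 0.788 CPM in shDHX15. Of 4 genes tested for glucose uptake and its first steps, all 4 fell, with HK2 3.79-fold lower (edgeR adjusted p = 2.72e-16) and the transporter gene SLC2A1 2.07-fold lower (adjusted p = 2.05e-13). In the thioredoxin system, 7 of 9 genes fell in shDHX15 over shcControl, among them TXN, the partner of TXNIP, 1.40-fold (edgeR adjusted p = 9.6e-06). With added MYC 3 rose and 5 fell, with PRDX1 2.18-fold higher (edgeR adjusted p = 1.82e-13) and GLRX 2.05-fold lower (3.83e-12) than in shDHX15. Of 8 NEDD4-type ligases, the enzymes that alpha-arrestins recruit, 3 were higher and 2 lower with added MYC over shDHX15, and NEDD4L rose 2.33-fold (adjusted p = 2.21e-10).

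Around the other members, 14 of 24 cyclin G and quiescence genes were lower and 6 higher with added MYC over shDHX15 (median log2 fold change -0.98), where 42.6% of all genes were lower and 42.1% higher. CCNG1, the other cyclin G gene, was 2.39-fold lower in shDHX15+MYC than in shcControl (edgeR adjusted p = 7.68e-16), but CDKN1A, the cell cycle inhibitor p21, rose 5.63-fold over shDHX15 (edgeR adjusted p = 1.95e-17). The glucocorticoid receptor gene NR3C1, which induces TSC22D3, was 1.18-fold higher in shDHX15 than in shcControl (edgeR adjusted p = 0.000183) and 1.97-fold lower in shDHX15+MYC than in shDHX15 (adjusted p = 5.4e-13). Of 13 glucocorticoid response genes tested, 6 were higher (3 without shDHX15-3) and 3 lower in the knockdown, and 5 were higher and 7 lower with added MYC. Of the 3 other TSC22 genes, TSC22D1 fell 1.80-fold (edgeR adjusted p = 2.51e-12) and TSC22D2 rose 1.73-fold (4.99e-07) with added MYC over shDHX15, and TSC22D4 fell 1.12-fold (0.0015) with a log2 fold change that turns to 0.03 on total counts alone. Of 6 genes of the BTG and TOB family and their CCR4-NOT enzymes, 2 were higher (1 without shDHX15-2) and 3 lower with added MYC, and the median changed sign with the scaling (-0.13 with TMM and 0.07 on total counts). The nucleases CNOT7 and CNOT8, through which BTG1 acts, fell 1.79-fold and 1.60-fold (edgeR adjusted p = 2.83e-13 and 1.53e-11).

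**Figure D5:**
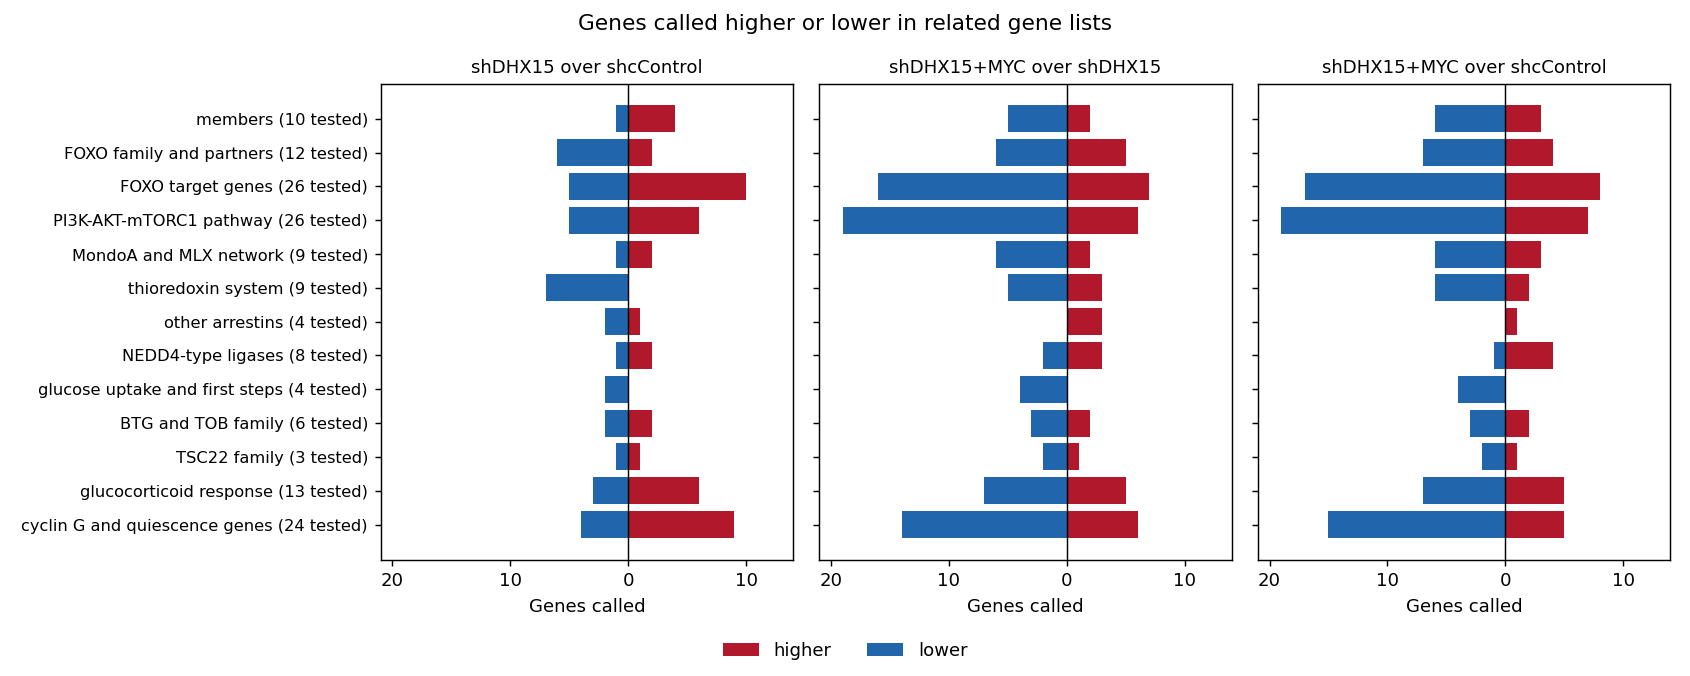
Number of genes called higher (right of 0) or lower (left of 0) in the 10 members and the related lists, in the 3 comparisons, at an adjusted p under 0.05 in edgeR with TMM scaling. The longest bars are the 19 of 26 PI3K-AKT-mTORC1 genes called lower in each comparison with added MYC. Bars are counts, so longer lists can have longer bars. The 10 members have 5 genes to the left in shDHX15+MYC over shDHX15 and 6 in shDHX15+MYC over shcControl. Of all genes tested, 42.6% and 42.5% were called lower there, so the member counts lie near the background.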

How the data were processed

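The authors deposited 1 table of unscaled read counts, whole numbers for each gene in 9 libraries. Per the submitters' processing notes, FastQC 0.11.9, HISAT2 2.2.1 and DESeq2 1.32.0 were used with the genome build hg38; which counting program, strand setting and annotation were used is not given in the sources used here. Columns were joined to samples by name: the GFP hairpin columns to shcControl, and the columns with a hairpin number alone, with or without MYC, to the DHX15 groups, since the labels give no other target.

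Genes were kept by filterByExpr, scaled by TMM and fitted with edgeR 4.0.16 (quasi-likelihood, a mean for each group, all 9 libraries in the fit; R 4.3.3). The 3 comparisons were tested 2-sided, with Benjamini-Hochberg adjustment over the 15309 genes. The SE is the log2 fold change divided by the root of the F statistic. The edgeR step was tested on simulated data: of genes changed 1.5-fold, 90% were recovered in shDHX15 over shcControl (15125 genes), 90% in shDHX15+MYC over shDHX15 (15104 genes) and 94% in shDHX15+MYC over shcControl (15116 genes). At 1.25-fold these rates were 82%, 60% and 72%. Only 50 genes were changed at each size, none with few counts, whereas far more genes were called in the real data. The rates therefore hold for that simulation only. Symbols were matched to GENCODE v29 (94.9%) for position, exon length and shared sequence, and to RefSeq promoter windows.

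The members and the related lists were chosen with earlier results of these data known. The text names all members, DHX15 and MYC, examples from the up to 4 called genes per list and comparison with the smallest adjusted p, and the 3 genes most like each of 3 members. Some further genes of the related lists are marked as named after their values were seen. Alternatives were RLE and total-count scaling, DESeq2 1.42.0, other filters, 2-group fits, a replicate block, single-locus genes, thinned libraries and each library left out. Same-numbered libraries did not deviate together (r from -0.0239 to 0.0412), so libraries were not paired.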

Additional observations from a re-analysis of the deposited data

How the results depend on the processing

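Each member's fold change was computed under 18 alternatives per comparison where the gene could be fitted: 165 of 177 values kept direction and call in shDHX15 over shcControl, 163 of 177 in shDHX15+MYC over shDHX15 and 160 of 177 in shDHX15+MYC over shcControl. FOXO3 has no value among single-locus genes, and FOXO1 and KLF2 none with the filter on mean log2 CPM (3 or more). The number of members called lower in shDHX15 over shcControl, 1, was 0 in a fit of the 2 groups alone, 2 with single-locus genes, 2 with thinned libraries and 0 to 2 with 1 library left out. The number called higher in shDHX15+MYC over shDHX15, 2, was 5 on total counts and 4 with the CPM filter, and against shcControl, 3, it was 5 on total counts. The number called lower against shcControl, 6, was 4 with RLE, 4 on total counts, 4 with the CPM filter and 5 in DESeq2. With 1 library left out, 4 to 5 members were higher in the knockdown, and 2 to 3 were higher and always 5 lower with added MYC over shDHX15. Against shcControl always 3 were higher and 4 to 6 lower.

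Signs that turned were those of small differences. TXNIP in shDHX15+MYC over shDHX15 was 0.0219 with RLE and 0.0219 with DESeq2, 0.182 on total counts, 0.177 with the CPM filter, and -0.0519 to 0.0229 with 1 library left out; over shcControl it was 0.147 on total counts and 0.0903 with that filter. PIK3IP1 in shDHX15 over shcControl was 0.0341 on total counts and -0.0640 to 0.00342 with 1 library left out. With 1 library left out, FOXO1 in that comparison was -0.110 to 0.182 and BTG1 -0.113 to 0.0861, and BTG1 in shDHX15+MYC over shDHX15 was -0.0167 to 0.177. Beyond the choice of scaling and of libraries, the cause was not tested. Over all genes, total counts called 7679 higher and 5348 lower in shDHX15+MYC over shDHX15 (6438 and 6528 with TMM), 8128 and 4893 against shcControl (6437 and 6502), and 4576 and 2568 in the knockdown (3362 and 3524).

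With the replicate number as a block, the members called were 4 higher and 1 lower in the knockdown, 2 higher and 5 lower in shDHX15+MYC over shDHX15, and 3 higher and 5 lower in shDHX15+MYC over shcControl. KLF2 was the call lost there, at a log2 fold change of -0.70. Counts per library were 44 to 162 for FOXO1, 73 to 267 for KLF2, 81 to 144 for ARRDC4 without added MYC and 88 to 154 for TSC22D3 with it, which limits their precision. Leaving out each library was also applied to the related lists, an alternative chosen after seeing the data. Where it moved a count given above by over 1.5 times, the moved count is given with its list. Leaving out 1 library leaves 2 in its group, which are assumed to vary like the others.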
